A study of Mus musculus with 4 samples.

Results

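The insulin-like growth factor (IGF) axis was examined in mouse mammary epithelium through 9 genes of the 27998 listed in the deposited tables, chosen by name. They were 6 binding protein genes (Igfbp2, Igfbp3, Igfbp4, Igfbp5, Igfbp6 and Igfbp7) and 3 receptor genes (Igf1r, Igf2r and Insr). Single cells of total mammary epithelium (Lin–CD24+) from female FVB/NJ mice had been profiled by droplet RNA sequencing at puberty (age 5 weeks) and in adults (age 10 weeks) at estrus or at diestrus. These phases of the ovarian cycle were told apart by vaginal cytology. The labels name no transgene and no treatment. Glands of 6 mice were pooled for puberty, and glands of 2 mice were pooled for each adult phase, so each stage is 1 library and animals cannot be told apart within it. Puberty had 2 deposited tables, but these shared 5387 barcodes (99.2% of the first table) and were counted as 1 library, of which the first table was used.

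The puberty, estrus and diestrus libraries held 5428, 2729 and 2439 barcodes, with a median of 4103, 3236 and 3974 counts per cell. Cells were placed as basal, luminal progenitor (LP), mature luminal (ML) or luminal intermediate (Lum Int, between LP and ML) by signatures of other genes in the same cells, from which all 9 genes and the rest of the IGF pathway were left out. In the order puberty, estrus and diestrus there were 1131, 1306 and 1046 basal cells, 1774, 473 and 567 LP cells, 231, 110 and 94 Lum Int cells, and 2180, 785 and 679 ML cells. The 8 basal markers, among them Krt14, Krt5 and Acta2, summed to 21027 to 31913 CPM (counts scaled to a library of 1e+06) in basal cells and to 69.3 to 169 CPM in LP cells. A doublet caller (Scrublet) marked 24.2%, 2.73% and 0% of the puberty, estrus and diestrus Lum Int cells. It marked 77.6%, 80% and 47.6% of the cells between basal and luminal, which were put in no class.

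IGF1 and IGF2 are secreted growth factors that act through the type 1 IGF receptor, the product of Igf1r, and in part through the insulin receptor, the product of Insr. The IGF2 and mannose 6-phosphate receptor, the product of Igf2r, takes up IGF2 for degradation. IGF binding proteins hold the ligands outside the cell and set how much of them reaches the receptors, and IGFBP7 is a related secreted protein that binds IGFs only weakly. In the mammary gland IGF1 made by the stroma is known for its part in ductal growth at puberty, and IGFBP5 is known for its rise during involution.

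Igfbp2 and Igfbp5 lie tail to tail on chromosome 1 (GENCODE, GRCm38), Igfbp2 at chr1:72824503-72852474 on the plus strand and Igfbp5 at chr1:72857932-72874884 on the minus strand, with 5457 bases between them. Igfbp3 (chr11:7206086-7213923, minus strand) lies 3539 bases from Igfbp1, and Igfbp4 lies elsewhere on the same chromosome (chr11:99041244-99054392, plus strand). The other genes are Igfbp6 (chr15:102144362-102149511, plus), Igfbp7 (chr5:77349240-77408041, minus), Igf1r (chr7:67952827-68233668, plus), Igf2r (chr17:12682406-12769664, minus) and Insr (chr8:3122061-3279617, minus). No gene on the same strand lay within 500 bases of the 3′ end of any of them, where the 3′ reads of this assay fall. Igfbp7 overlaps Polr2b, and Igf2r overlaps Airn, on the opposite strand.

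Promoter windows are shown for the 4 binding protein genes whose levels the lineage results turn on. Igfbp2, Igfbp3 and Igfbp4 were high in basal cells alone, and Igfbp5, the neighbour of Igfbp2, was highest in LP cells. Each window runs from 250 bases before to 50 bases after the RefSeq start site on GRCm38.p6 and is written 5′ to 3′ on the strand of the gene: chr1:72824230-72824529 (plus) for Igfbp2, chr11:7213874-7214173 (minus) for Igfbp3, chr11:99040994-99041293 (plus) for Igfbp4 and chr1:72874816-72875115 (minus) for Igfbp5. Capitals mark the TATA box letters TATAAA or the GC box letters GGGCGG, searched on both strands.
Igfbp2: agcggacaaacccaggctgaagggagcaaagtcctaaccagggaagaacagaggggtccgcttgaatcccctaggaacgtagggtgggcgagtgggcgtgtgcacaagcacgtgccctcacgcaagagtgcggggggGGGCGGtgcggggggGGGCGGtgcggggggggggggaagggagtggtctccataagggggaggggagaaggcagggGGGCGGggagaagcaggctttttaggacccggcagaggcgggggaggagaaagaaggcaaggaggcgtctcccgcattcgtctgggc
Igfbp3: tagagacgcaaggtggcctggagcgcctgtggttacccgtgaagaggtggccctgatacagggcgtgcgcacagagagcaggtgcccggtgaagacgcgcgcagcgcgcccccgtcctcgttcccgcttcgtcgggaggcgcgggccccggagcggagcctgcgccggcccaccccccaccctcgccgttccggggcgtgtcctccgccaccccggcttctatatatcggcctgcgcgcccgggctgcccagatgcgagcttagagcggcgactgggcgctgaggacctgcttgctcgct
Igfbp4: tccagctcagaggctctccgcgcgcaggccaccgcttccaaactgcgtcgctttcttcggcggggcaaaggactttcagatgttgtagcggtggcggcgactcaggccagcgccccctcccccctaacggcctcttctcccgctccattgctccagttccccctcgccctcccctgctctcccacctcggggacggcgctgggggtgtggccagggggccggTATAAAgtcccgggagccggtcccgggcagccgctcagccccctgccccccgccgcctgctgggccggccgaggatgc
Igfbp5: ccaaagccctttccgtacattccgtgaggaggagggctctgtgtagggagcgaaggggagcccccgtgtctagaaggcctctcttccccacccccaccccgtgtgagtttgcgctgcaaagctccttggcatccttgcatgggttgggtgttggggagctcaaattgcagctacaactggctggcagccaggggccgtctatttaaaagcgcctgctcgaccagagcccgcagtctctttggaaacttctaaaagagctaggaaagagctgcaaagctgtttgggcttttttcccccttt

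The Igfbp2 window held 3 GC boxes and no TATA box, the Igfbp4 window held 1 TATA box and no GC box, and the windows of Igfbp3 and Igfbp5 held neither. Only the exact letters given above were searched, so variants of either motif were not counted. Of all 32851 RefSeq windows of this length, 35.7% held a GC box and 13.6% a TATA box. The 3 genes high in basal cells alone did not share either motif. Bases G and C made up 67% of the Igfbp2, 71.7% of the Igfbp3, 71.3% of the Igfbp4 and 56.3% of the Igfbp5 window, against a median of 52.7% over all windows. RefSeq has a further window for Igfbp2, with a start site at base 72825387, and that one held neither motif and 57.3% G and C. Windows were found for 8 of the 9 genes, all but Insr.

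Levels are counts summed over the cells of a class, scaled to CPM with edgeR's TMM factors, so fewer cells with a transcript and fewer copies per cell cannot be told apart in them. Classes were compared with edgeR's quasi-likelihood test on the 12 sums of 4 classes and 3 libraries, with library as a block and an adjusted p under 0.01 as the threshold over 11143 genes. Between basal and LP cells, 6 of the 9 genes were higher in basal cells (17.8% of all genes tested were) and 1 was lower (17.7% were). Between basal and ML cells, 7 of the 9 were higher in basal cells (24.1% of all genes) and none was lower (21.3%). Both counts of higher genes include Igfbp2, Igfbp3, Igfbp4 and Igfbp6, which passed the filter on low counts only with their basal sums. The filter thus favoured genes high in basal cells, and the basal calls of these genes support nothing beyond the levels given below. Between LP and ML cells, 4 of the 9 were higher in LP cells (16.7% of all genes) and none was lower (14.5%). The median log2 difference of the 9 genes was 2.88 for basal against LP and 5.92 for basal against ML, beside -0.00460 and 0.0312 over all genes. The value of 5.92 was that of Igfbp6.

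**Figure D1:**
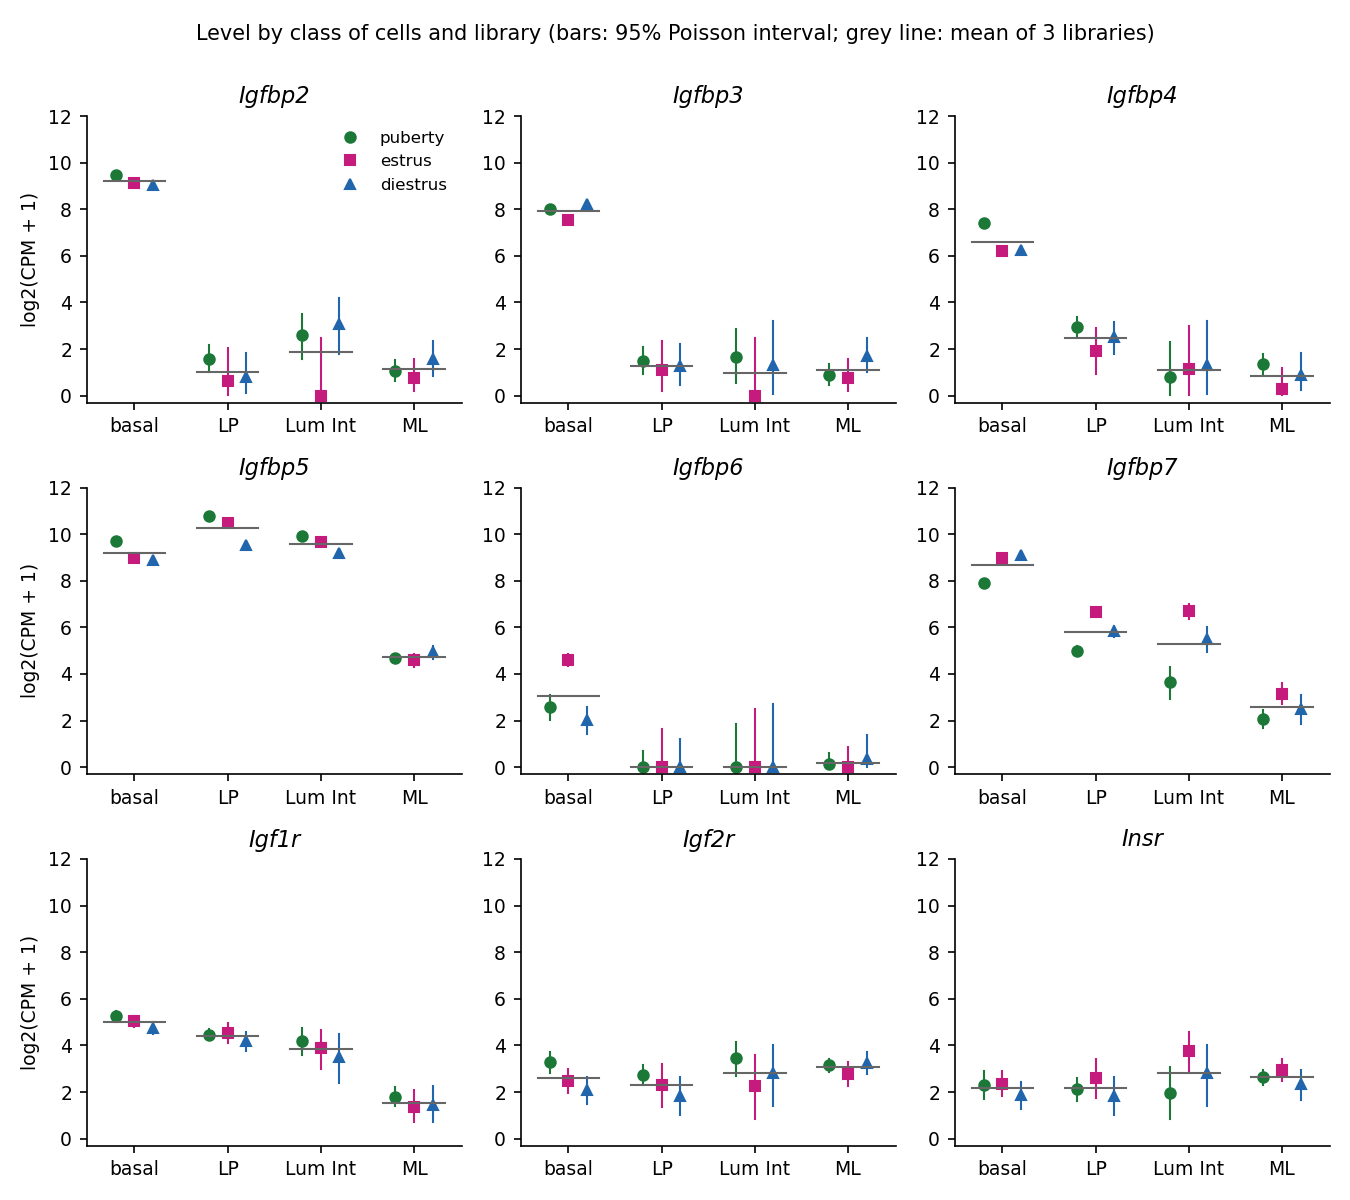
Level of each of the 9 genes, as log2(TMM-scaled CPM + 1) on the vertical axis, in basal, LP, Lum Int and ML cells of the puberty (circle), estrus (square) and diestrus (triangle) libraries. Bars are 95% Poisson intervals and grey lines are means of 3 libraries. Igfbp2 stood at 529 to 708 CPM in basal cells and at 7.46 CPM or less elsewhere, whereas Igfbp5 was highest in LP cells and the Igf2r and Insr levels overlapped between classes next to each other in level.

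Igfbp2, which encodes a binding protein with a preference for IGF2, was a basal transcript. In basal cells it reached 708 CPM in puberty, 555 in estrus and 529 in diestrus, from 2849, 2670 and 2626 counts. The LP levels were 1.99, 0.563 and 0.720 CPM and the ML levels 1.10, 0.681 and 2.01 CPM, in the same order, so no luminal library came near a basal one. The log2 difference was 8.81 ± 0.30 (SE) between basal and LP cells (edgeR adjusted p = 5.70e-12). Between basal and ML cells it was 9.03 ± 0.28 (edgeR adjusted p = 1.99e-12). Each SE of an edgeR log2 difference, here and below, is the size of the difference divided by the square root of the F statistic. Such an SE is not a spread over libraries, and it can understate the error where a class has few counts. A count of Igfbp2 was present in 59.2%, 44.8% and 55.5% of basal cells and in 0.507%, 0.211% and 0.353% of LP cells, with median depths of 2898, 2541 and 3393 counts in basal and 3693, 3179 and 4052 in LP cells. With every cell thinned to 1500 counts, the basal shares were 46.4%, 34.8% and 35.4%.

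Igfbp3 encodes the main carrier of IGFs in blood. In basal cells it was at 256 CPM in puberty, 187 in estrus and 302 in diestrus, and in LP, Lum Int and ML cells no library exceeded 2.30 CPM. Diestrus was the highest of the 3 basal values and estrus the lowest. The log2 difference was 7.30 ± 0.24 (SE) against LP cells (edgeR adjusted p = 4.33e-12) and 7.80 ± 0.23 against ML cells (edgeR adjusted p = 1.10e-12). The share of basal cells with a count was 44.5% in puberty, 31.9% in estrus and 52.3% in diestrus, and no LP share was above 0.705%.

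Igfbp4, whose product holds IGFs back until the protease PAPP-A cuts it, was also highest in basal cells but reached further into the luminal lineage. Basal levels were 167 CPM in puberty, 72.3 in estrus and 74.1 in diestrus, so the puberty library stood apart from both adult ones. LP levels were 6.81, 2.81 and 4.68 CPM from 41, 5 and 13 counts, and ML levels were 1.56, 0.227 and 0.863 CPM from 17, 1 and 3 counts. Basal exceeded LP by 4.44 ± 0.22 on the log2 scale (SE, edgeR adjusted p = 2.63e-10), and LP exceeded ML by 2.33 ± 0.34 (edgeR adjusted p = 5.08e-05). Without the cycling cells the LP to ML difference was 1.59 (edgeR adjusted p = 0.0113) and no longer passed. The order basal, LP, Lum Int did not overlap between neighbours, while Lum Int (1 count in each library) and ML overlapped.

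Igfbp5, whose product binds IGFs and the extracellular matrix, had another pattern. LP cells held 1742 CPM in puberty, 1444 in estrus and 742 in diestrus (10489, 2566 and 2061 counts), Lum Int cells 966, 820 and 580 CPM, and basal cells 822, 504 and 475 CPM. In ML cells the levels were 25, 22.9 and 29.3 CPM, below every other class in every library. LP was above Lum Int, and Lum Int above basal, in 3 of 3 libraries, although the ranges of the 3 classes overlapped across libraries. LP exceeded ML by 5.63 ± 0.24 on the log2 scale (SE, edgeR adjusted p = 7.07e-11), and basal exceeded ML by 4.53 ± 0.23 (edgeR adjusted p = 2.21e-10).

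Igfbp5 was the gene of the 9 that was lower in basal than in LP cells, by -1.10 ± 0.19 on the log2 scale (SE, edgeR adjusted p = 0.00018). This call was lost without the estrus library, where the difference was -0.83 (edgeR adjusted p = 0.0117), and without the block for library (-1.13, edgeR adjusted p = 0.0161). A count of Igfbp5 was present in 90.1%, 92.6% and 82.2% of LP cells in the order puberty, estrus and diestrus. In basal cells the shares were 64.0%, 59.8% and 64.3%, and in ML cells 4.27%, 5.10% and 10.8%. Thinned to 1500 counts per cell, LP cells had 75.7%, 80.0% and 62.4% and ML cells 2.09%, 2.47% and 3.46%.

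Igfbp6, whose product prefers IGF2, was sparse. Basal cells had 20 counts in puberty (4.97 CPM), 111 in estrus (23.1 CPM) and 15 in diestrus (3.02 CPM). LP and Lum Int cells had 0 counts in all libraries, and ML cells had 1, 0 and 1. With 3 counts as the limit, a count of 0 allows LP levels of up to 0.498 CPM in puberty, 1.69 in estrus and 1.08 in diestrus. The gene passed the filter on low counts through its basal counts alone, so its calls between classes support nothing beyond those counts. It passed the test between basal and LP cells (edgeR adjusted p = 7.30e-05). It also passed between basal and ML cells, by 5.92 ± 0.70 on the log2 scale (SE, edgeR adjusted p = 2.20e-05). With DESeq2 neither call was kept (adjusted p = 0.0132 and 0.0282), and without the puberty library, with the second puberty table or with a stricter choice of cells the gene did not pass the filter on low counts.

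Igfbp7 was highest in basal cells and present at lower levels in the other classes. Basal levels were 241 CPM in puberty, 498 in estrus and 542 in diestrus, and LP levels were 30.6, 99.6 and 55.8 CPM. In ML cells it was at 3.22, 7.94 and 4.60 CPM. Basal exceeded LP by 2.88 ± 0.23 on the log2 scale (SE, edgeR adjusted p = 6.62e-08), and LP exceeded ML by 3.46 ± 0.29 (edgeR adjusted p = 1.38e-07). Single cells carried much of some low sums: 1 estrus Lum Int cell held 48 of the 82 counts of its class, and 1 estrus ML cell held 22 of 35.

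Of the receptor genes, Igf1r was the one that passed a test between classes. It was at 37.3, 31.8 and 26.0 CPM for basal, at 21.1, 22.5 and 17.3 for LP, at 17.2, 13.7 and 10.4 for Lum Int and at 2.48, 1.59 and 1.73 for ML cells, in the order puberty, estrus and diestrus. The ranges of neighbouring classes did not overlap, and the order basal, LP, Lum Int, ML held in 3 of 3 libraries. Against ML cells the log2 difference was 3.97 ± 0.21 (SE) for basal (edgeR adjusted p = 4.76e-10) and 3.32 ± 0.22 for LP cells (edgeR adjusted p = 1.22e-08). The step from LP to basal was small, at 0.66 ± 0.17 (edgeR adjusted p = 0.00473). It was lost without the puberty library (adjusted p = 0.0558), without estrus (0.0139) and without diestrus (0.0289), with the difference between 0.60 and 0.78.

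Igf1r was detected in few cells. A count was present in 9.46%, 10.0% and 10.4% of basal cells, in 5.69%, 7.82% and 7.58% of LP cells and in 0.963%, 0.892% and 0.884% of ML cells, although ML cells had the higher median depth (4667, 4146 and 4335 counts against 2898, 2541 and 3393 in basal cells). Thinned to 1500 counts, basal cells had 4.93%, 4.99% and 3.61%.

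Igf2r and Insr were low in every class. Igf2r was at 7.90, 5.90 and 8.63 CPM in ML cells, 8.69, 4.57 and 3.22 in basal cells and 5.65, 3.94 and 2.52 in LP cells. Insr was at 5.24, 6.81 and 4.03 CPM in ML cells, 3.97, 4.16 and 2.62 in basal cells and 3.32, 5.06 and 2.52 in LP cells. The highest mean of Igf2r was in ML cells (7.48 CPM) and that of Insr in Lum Int cells (7.09 CPM, from 4, 10 and 4 counts), but all neighbouring classes overlapped. Igf2r was lower in LP than in ML cells in 3 of 3 libraries by -0.88 ± 0.34 on the log2 scale, which did not pass (edgeR adjusted p = 0.0485). Insr was lower in LP than in ML cells in 3 of 3 libraries by -0.58 ± 0.35 (edgeR adjusted p = 0.201).

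The binding protein counts of a class were therefore made up differently. In basal cells they were spread over several genes: in puberty Igfbp5 made up 37.4% of them, Igfbp2 32.2%, Igfbp3 11.6%, Igfbp7 11% and Igfbp4 7.59%. In diestrus the same genes made up 24.7%, 27.5%, 15.7%, 28.2% and 3.85%. In LP cells Igfbp5 alone made up 97.7% in puberty, 93.3% in estrus and 92.2% in diestrus, and in Lum Int cells 98%, 88.8% and 91.3%. The summed level of the 6 genes was 2198, 1839 and 1925 CPM in basal cells, 1784, 1548 and 805 in LP cells and 31.8, 32.4 and 39.4 in ML cells. These are shares of counts at the 3′ end and were not scaled by transcript length.

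**Figure D2:**
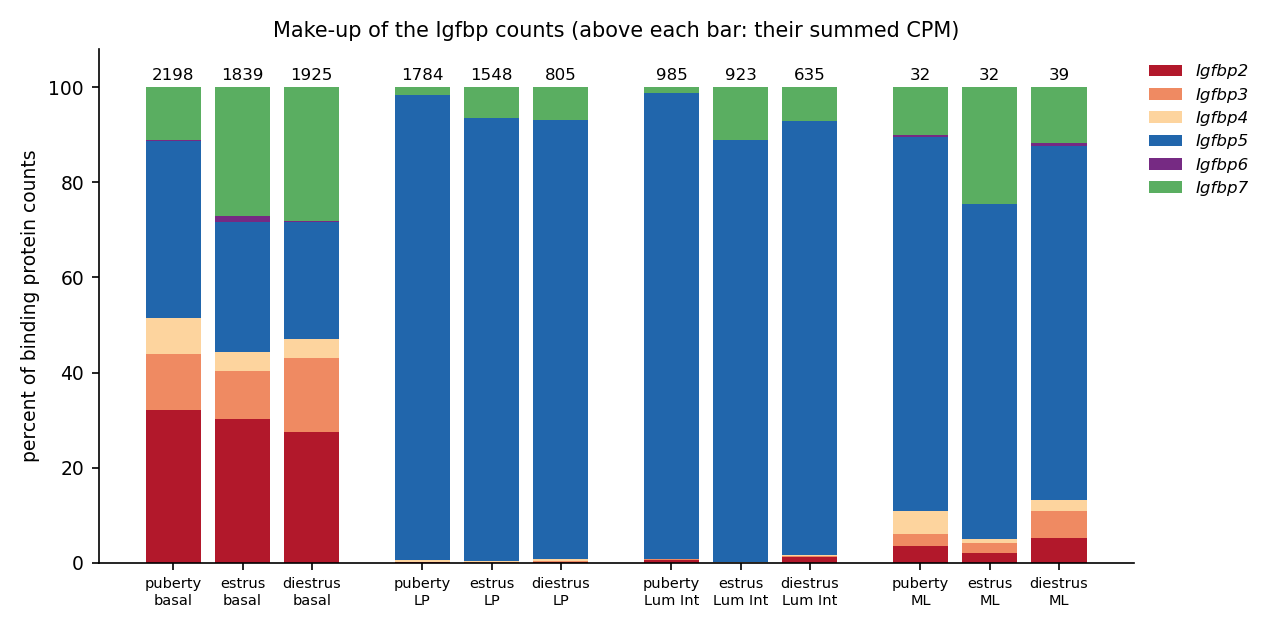
Make-up of the counts of the 6 binding protein genes, in percent of their sum on the vertical axis, for each class and library, with the summed TMM-scaled CPM above each bar. Several genes share the basal bars, whereas Igfbp5 fills 92.2% or more of each LP bar, and the ML bars rest on 32.4 CPM in estrus against 1839 in basal cells.

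Single basal cells often held transcripts of more than 1 binding protein. At 1500 counts per cell, 3 or more of the 6 genes were detected in 21.6% of puberty, 15% of estrus and 20.9% of diestrus basal cells, and none in 11.5%, 15.9% and 9.36%. Of LP cells, 74.2%, 72.2% and 60.8% held exactly 1 of the genes, and 97.3%, 97.1% and 94.7% of ML cells held none. At least 1 of the 3 receptor genes was detected in 7.03%, 6.68% and 4.29% of basal cells.

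**Figure D3:**
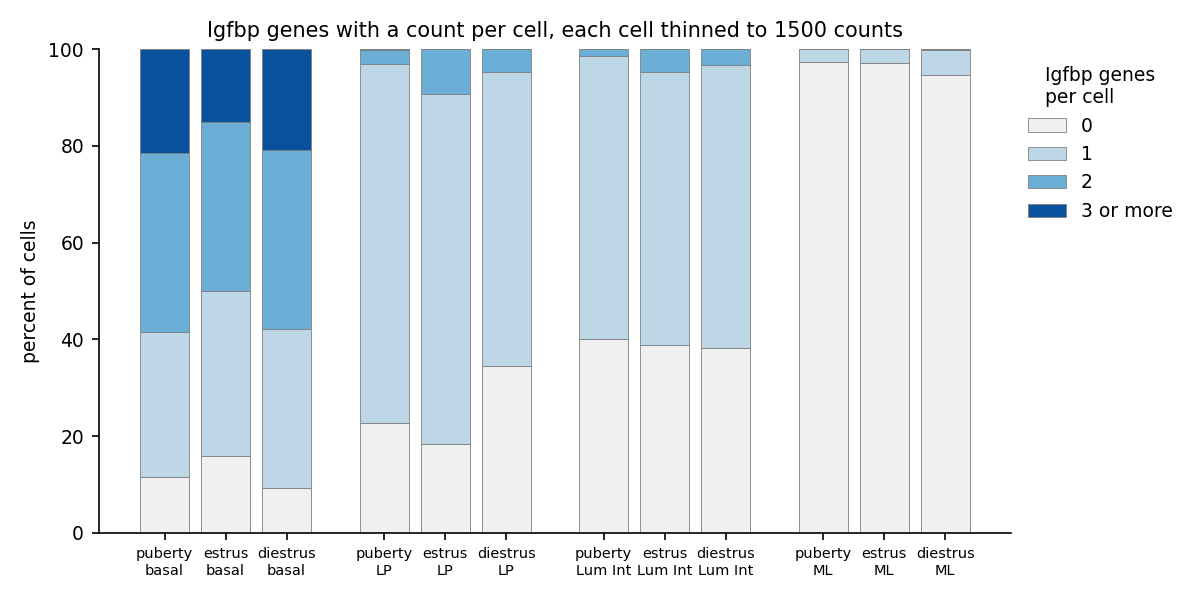
Share of cells, in percent on the vertical axis, with 0, 1, 2 and 3 or more of the 6 binding protein genes detected, each cell thinned to 1500 counts, for each class and library. Cells with 3 or more genes made up 15% to 21.6% of basal cells and at most 0.0570% of LP cells, and 94.7% or more of ML cells held none.

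Within basal cells some pairs of the genes were found together more or less often than their separate shares give. At 1500 counts per cell, Igfbp2 and Igfbp4 were found in the same cell 1.33 times as often in puberty, 1.52 times in estrus and 1.19 times in diestrus as their separate shares give. Igfbp4 and Igfbp7 were found together in 17 puberty cells against 45.4 by their separate shares, in 24 estrus cells against 36.6 and in 45 diestrus cells against 48.2. Of the 10 pairs of the 5 more abundant genes, 6 kept 1 direction in 3 of 3 libraries, 2 above and 4 below what the separate shares give. Some of the 6 lay near 1, such as Igfbp3 with Igfbp4 (0.894, 0.962 and 0.947) and Igfbp3 with Igfbp5 in diestrus (1.02). Other gene pairs were not examined, so the count of 6 is no result about these genes. Igfbp2 with Igfbp4 and Igfbp4 with Igfbp7 were named after their values were seen. The ratios describe cells that share a library.

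Basal cells with 2 or more Igfbp4 counts had lower levels of the basal markers than those with none. Their 8 basal markers summed to 10024 CPM in puberty, 14044 in estrus and 13456 in diestrus, against 27567, 36271 and 22766 CPM in the basal cells with none. Choosing cells by 2 or more raw counts favours deep cells, and their median depth was 5747, 8029 and 6557 counts against 2463, 2399 and 3102. The marker sums were also lower in basal cells with 2 or more Igfbp2 counts, at 18363, 29160 and 19177 CPM against 24830, 33629 and 24746 with none. With 2 or more Igfbp7 counts they were higher, at 27426, 34545 and 21567 CPM against 17484, 29316 and 19872. The part of depth in the marker differences was not tested.

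Lum Int cells were compared with both luminal classes to see where they lie for these genes. Against LP cells none of the 9 genes passed the edgeR test, beside 8.22% of all genes. At an unadjusted p under 0.05 there were 4 (Igfbp2, Igfbp4, Igfbp5 and Igf1r), and DESeq2 also gave 0. Igfbp5 was lower in Lum Int than in LP cells in 3 of 3 libraries, by -0.70 ± 0.19 on the log2 scale (SE, edgeR adjusted p = 0.0209), and it passed without the diestrus library (-0.87, edgeR adjusted p = 0.00156). Igfbp4 was lower by -2.30 ± 0.60, with 1 count in each Lum Int class (edgeR adjusted p = 0.0165).

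Against ML cells 3 of the 9 passed, all higher in Lum Int cells, beside 6.19% of all genes that differed in either direction. These were Igfbp5 by 4.93 ± 0.23 on the log2 scale (SE, edgeR adjusted p = 1.25e-09), Igfbp7 by 3.10 ± 0.34 (edgeR adjusted p = 1.27e-05) and Igf1r by 2.80 ± 0.29 (edgeR adjusted p = 6.00e-06). Igfbp2 had 7, 0 and 5 counts in Lum Int cells (5.02, 0 and 7.46 CPM), above the LP and ML levels in puberty and diestrus and at 0 in estrus, and neither difference passed (edgeR adjusted p = 0.120 and 0.0825).

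The stages were compared within each class. With 1 library per stage there is no test, and the 95% intervals cover counting error only, not animals or library preparation. A difference was called where TMM-scaled levels differed at least 2-fold with a pseudocount of 1 CPM and one of them reached 20 CPM, and for puberty where it held against both adult phases in the same direction. Cycling cells, those with a count of at least 3 of 10 cell cycle genes, made up 10.4%, 4.90% and 19.8% of the puberty, estrus and diestrus basal cells, and 7.61%, 4.65% and 18.0% of LP cells.

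In basal cells 2 of the 6 genes tested differed between puberty and both adult phases, beside 2.84% of all genes. Igfbp4 was higher in puberty, at 2.31 times the estrus level (2.02 to 2.63) and 2.25 times the diestrus level (1.98 to 2.57). Igfbp7 was lower in puberty: the estrus level was 2.06 times (1.91 to 2.22) and the diestrus level 2.25 times (2.09 to 2.42) that of puberty. Both lay close to the 2-fold limit. With cycling cells left out the smaller log2 ratio was 0.98 for Igfbp4 and -0.96 for Igfbp7, and with a mean over cells 0.80 and -0.91, so that neither was called.

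The shares of basal cells moved the same way. A count of Igfbp4 was present in 29.4% of puberty basal cells (26.7% to 32.1%, 95% Clopper-Pearson), 15.8% of estrus ones (13.9% to 17.9%) and 22.7% of diestrus ones (20.2% to 25.3%), and in 15.4%, 7.17% and 9.75% after thinning to 1500 counts. The Igfbp7 shares were 38.6% (35.8% to 41.5%), 59.4% (56.7% to 62.1%) and 70.4% (67.5% to 73.1%), and 26.8%, 41.1% and 48.2% after thinning. The 6 pericyte markers summed to 3.44, 12.8 and 3.61 CPM in the basal cells of puberty, estrus and diestrus. In basal cells with an Igfbp7 count they summed to 6.22, 19.5 and 3.55 CPM in the same order, against 1.90, 0.640 and 3.81 CPM in those without. The endothelial and immune lists were at 0.737 to 2.95 CPM in basal cells of all libraries. The part of such cells in the Igfbp7 difference was not tested.

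Between diestrus and estrus 1 of the 7 genes tested in basal cells was called, beside 10.4% of all genes. This was Igfbp6, which reached the 20 CPM limit through the estrus library alone, so the limit selected it by the difference given here and the count supports nothing. It was 7.64 times higher in estrus than in diestrus (4.44 to 14.1), and 4.65 times higher than in puberty (2.87 to 7.90). The 111 estrus counts lay in 97 cells (7.43% of basal cells, 6.06% to 8.99%), with at most 3 counts in a cell, against 1.5% in puberty and 1.43% in diestrus. Igfbp6 was at 1336 to 2623 CPM in fibroblasts, which were left out as cells of another type. In the 97 estrus basal cells the fibroblast list summed to 160 CPM, against 304 CPM in the 1209 basal cells without a count, and in the 10 cells with 2 or more counts the fibroblast, endothelial and pericyte lists were at 0.

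That fibroblast list rested on Dcn in basal cells, at 247, 280 and 245 CPM in puberty, estrus and diestrus, and Dcn was also at 249 to 710 CPM in ML cells. Of the more specific fibroblast genes, Col1a2 was at 1.96, 7.30 and 2.12 CPM and Col3a1 at 0.491, 3.19 and 1.49 CPM in the same order, so both were highest in the library in which Igfbp6 was. Col1a1, Lum and Pdgfra were each at 1.82 CPM or less in every library. The part of fibroblast RNA in the Igfbp6 difference was not tested.

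The remaining differences in basal cells were not called. Igf2r in puberty was 2.70 times the diestrus level (1.46 to 5.22), but at 8.69 against 3.22 CPM it was under the 20 CPM limit. Igfbp2 in puberty was 1.27 times the estrus (1.21 to 1.34) and 1.34 times the diestrus level (1.27 to 1.41), and estrus and diestrus did not differ beyond counting error (1.05, 0.995 to 1.11). Igfbp5 in puberty was 1.63 times the estrus and 1.73 times the diestrus level. Igfbp3 was 1.62 times higher in diestrus than in estrus (1.49 to 1.76). Igf1r in puberty was 1.17 times the estrus (0.929 to 1.48) and 1.43 times the diestrus level (1.13 to 1.83).

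In LP cells none of the 3 genes tested was called between the phases (11.5% of all genes were) or for puberty against both (2.23%). With the pseudocount, Igfbp5 lay just under the limit between the phases: estrus was at 1.95 times the diestrus level (1.83 to 2.06). Puberty was at 2.35 times the diestrus (2.24 to 2.46) but at 1.21 times the estrus level (1.16 to 1.26), so diestrus stood apart as the low library. The excess of puberty over estrus came from the scaling, with TMM factors of 0.792 and 0.967 for these LP sums. Unscaled, Igfbp5 had 10489 of 7602216 LP counts in puberty and 2566 of 1837850 in estrus, and puberty was not higher. Igfbp7 was lowest in puberty, with estrus at 3.26 times (2.64 to 4.03) and diestrus at 1.83 times (1.47 to 2.27) its level. It was called for puberty with library sizes alone, with a mean over cells and with cells of other types kept.

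In ML cells Igfbp5 was the 1 gene abundant enough to test, and it was not called in either comparison (6.64% and 2.58% of all genes were). The estrus to diestrus ratio was 0.781 (0.587 to 1.04). The puberty to diestrus ratio was 0.852 (0.676 to 1.08), and the puberty to estrus ratio was 1.09 (0.865 to 1.38). The summed ML levels of Igfbp5 therefore did not differ beyond counting error, with diestrus highest. The share of ML cells with a count, given above, was also highest in diestrus, and with Leiden clusters Igfbp5 was called between the phases. Whether it follows the phases in ML cells was not tested. In LP, Lum Int and basal cells the lowest Igfbp5 value was in diestrus.

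**Figure D4:**
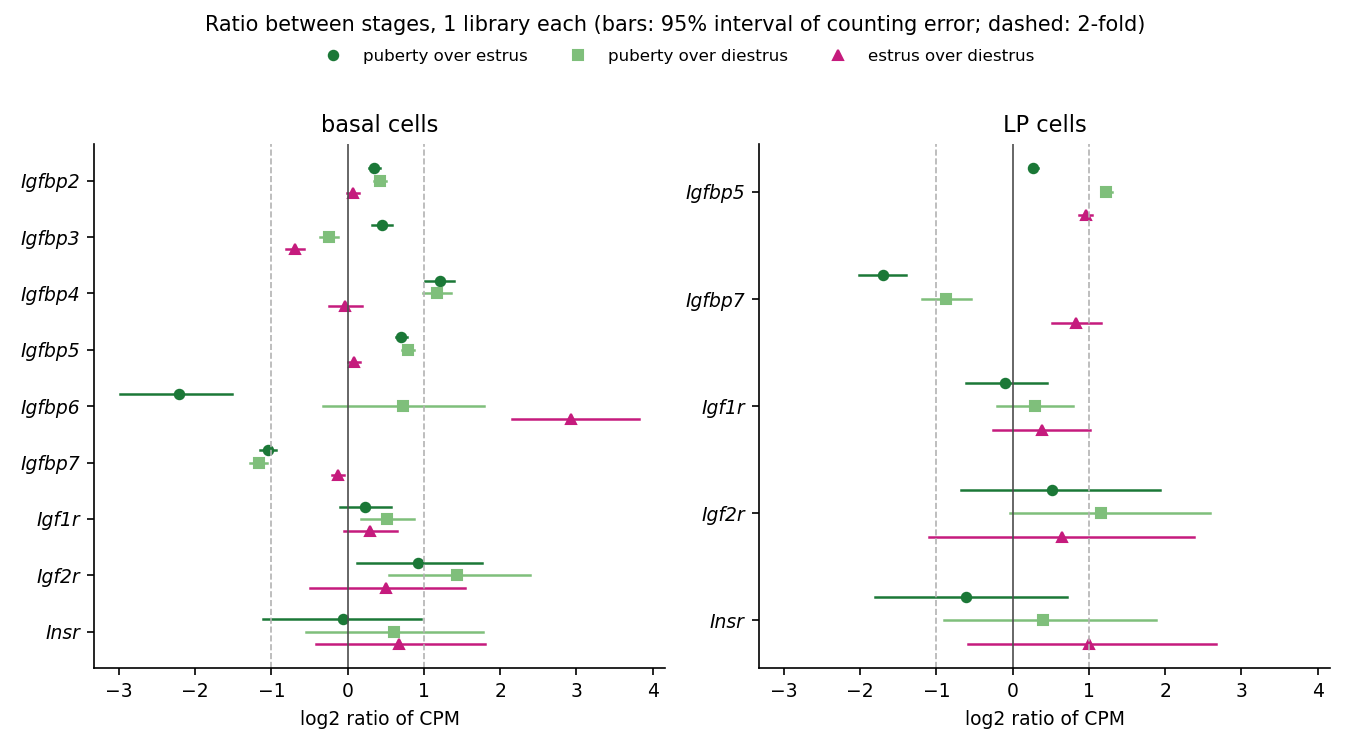
Ratio of TMM-scaled CPM between libraries on a log2 axis, for the genes in basal cells (left) and 5 of them in LP cells (right), with 95% intervals of counting error. Dashed lines mark 2-fold. In basal cells Igfbp4 lay beyond 2-fold above both adult phases and Igfbp7 below them, and Igfbp6, over 20 CPM in estrus alone, was 7.64 times higher there than in diestrus.

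Cycling cells were compared with the other cells of the same class and library in 18 sums, with class and library together as a block. Over 10314 genes, 11.2% were higher and 17.7% lower in cycling cells, and of the 7 genes tested here 3 were lower and none was higher. Igfbp6 and Insr did not pass the filter on low counts. The median gene moved by -0.165 on the log2 scale with TMM and by 0.0483 with library sizes alone. Cycling cells had a median depth of 7074.5 to 10603.5 counts and the other cells of 2481 to 4508.5.

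Igfbp5 had the largest difference of the 7, at -1.88 ± 0.18 on the log2 scale (SE, edgeR adjusted p = 5.73e-08), or -1.72 relative to the median gene. In basal cells it was at 135 CPM in cycling against 1064 in other cells in puberty, at 164 against 575 in estrus and at 155 against 721 in diestrus. In LP cells the values were 511 against 2108, 439 against 1691 and 347 against 1022, so cycling cells were lower in every library of both classes. In ML cells they were 21.5 against 28.1, 2.67 against 30.1 and 20.3 against 33.7, which made it 9 of 9 pairs.

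Igfbp7 was lower by -0.99 ± 0.21 (edgeR adjusted p = 0.000879), in 7 of 9 pairs. The basal values were 80.7 CPM in cycling against 301 in other cells in puberty, 139 against 571 in estrus and 474 against 644 in diestrus. Igf1r was lower by -0.96 ± 0.24 (edgeR adjusted p = 0.00304) in 9 of 9 pairs, with 0 counts in cycling ML cells of every library. Neither call held without the puberty library (edgeR adjusted p = 0.0271 for Igfbp7 and 0.0294 for Igf1r) or without estrus (0.0193 and 0.0331). Igf1r was also lost with library sizes alone (-0.76, edgeR adjusted p = 0.0167).

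Igfbp4 had the opposite sign. It was at 225 CPM in cycling against 158 in other basal cells in puberty and at 164 against 58.7 in estrus, but at 76.1 against 81.0 in diestrus. The difference over all pairs was 0.81 ± 0.25 on the log2 scale, higher in 6 of 9 pairs, and did not pass (edgeR adjusted p = 0.0125). It passed without diestrus (1.17, edgeR adjusted p = 0.00556), with library sizes alone (0.99, 0.00675), with Leiden clusters (0.81, 0.00711) and without a filter (0.78, 0.000166), and was 0.16 with cycling set by Mki67 alone (0.634). Igfbp2 (0.35, adjusted p = 0.105), Igfbp3 (-0.31, 0.334) and Igf2r (-0.51, 0.134) did not pass the same edgeR test.

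A difference between basal and luminal cells in the cycling contrast was tested as an interaction, which 0.32% of all genes passed. None of the 7 genes passed it in edgeR or in DESeq2, and 3 were under an unadjusted p of 0.05 (Igfbp5, Igfbp7 and Igf1r). For Igfbp5 the cycling difference was more negative in basal than in luminal cells by -0.96 ± 0.27 (SE, edgeR adjusted p = 0.0790), and without the estrus library by -1.40, which passed (edgeR adjusted p = 0.00565).

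**Figure D5:**
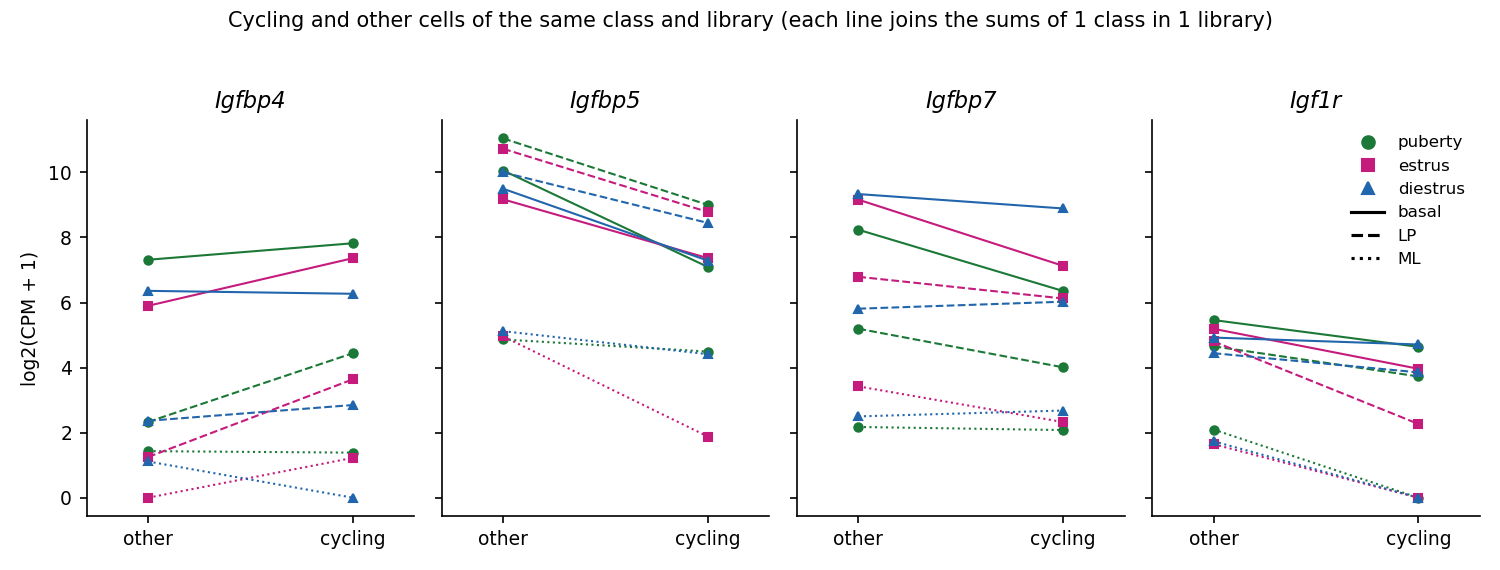
Level of Igfbp4, Igfbp5, Igfbp7 and Igf1r, as log2(TMM-scaled CPM + 1) on the vertical axis, in other and in cycling cells, with a line for each class (solid basal, dashed LP, dotted ML) and library. All 9 Igfbp5 lines fall, and 6 of the 9 Igfbp4 lines rise.

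The ligands and the other genes of the pathway were read in the same fit, from a list of 41 genes of which 33 were tested. Igf1 had 10 counts in diestrus LP cells and 2 in estrus Lum Int cells and none in any other class, and Igf2 had none in any class. With 3 counts as the limit, a count of 0 allows up to 0.217 CPM over the basal cells of all libraries. For Igf2 this holds only for reads counted to that gene, since it could not be checked whether reads shared with an overlapping gene were left out. Of the list, 5 genes were higher and 9 lower in basal than in LP cells (median log2 difference -0.18, against -0.00460 over all genes), 8 were higher and 7 lower in basal than in ML cells (median 0.0443, against 0.0312), and 11 were higher and 5 lower in LP than in ML cells (median 0.0296, against 0.0352). As shares of the 33 these were 15.2% and 27.3%, 24.2% and 21.2%, and 33.3% and 15.2%. The second pair is near the 24.1% and 21.3% of all genes given above, and the last value is near 14.5%.

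Of the 5 genes for proteases of the binding proteins and their inhibitors, 4 were tested. Htra1, a secreted serine protease that can cut IGFBPs, was at 85.6 ± 33.2 CPM (SD, n = 3 libraries) in basal cells and had 3 counts in LP cells (log2 difference 8.22, edgeR adjusted p = 9.08e-10). Pappa, which encodes the protease PAPP-A that cuts IGFBP4, was at 23.3 ± 10.7 CPM in basal cells with 1 count in LP cells (7.65, edgeR adjusted p = 3.77e-07). Stc2, which encodes an inhibitor of PAPP-A, was at 1105 ± 330 CPM in ML cells, 17.7 in LP and 5.95 in basal cells (basal against ML -7.50, edgeR adjusted p = 5.04e-13; LP against ML -5.94, edgeR adjusted p = 3.99e-12). Stc1, a related gene, was at 15 CPM in LP and 0.79 CPM in both basal and ML cells, lower in basal than in LP cells (-4.15, edgeR adjusted p = 7.52e-07) and higher in LP than in ML cells (3.93, edgeR adjusted p = 6.71e-07). Pappa2 had 13 counts in basal cells and did not pass the filter.

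Among the genes for adaptors that bind the receptors, Irs2 had mean levels of 29.5 CPM (basal), 30.5 CPM (LP) and 3.54 CPM (ML). It was higher in basal than in ML cells by 2.97 ± 0.34 (edgeR adjusted p = 2.13e-06) and in LP than in ML cells by 3.04 ± 0.34 (edgeR adjusted p = 3.03e-06). Irs1 was highest in LP cells (11 CPM) and exceeded ML there by 2.05 ± 0.38 (edgeR adjusted p = 0.000498). It did not pass between basal and LP cells (-1.02, edgeR adjusted p = 0.0295). Grb14, another adaptor gene, went the other way, at 80.2 CPM in ML, 21.9 in basal and 4.32 in LP cells. It was lower in basal (-1.84, edgeR adjusted p = 4.31e-06) and in LP cells (-4.21, edgeR adjusted p = 1.44e-08) than in ML cells. The adaptors Shc1 and Grb10 did not pass against ML cells. Igf2bp2, an RNA-binding protein gene, was lower in LP than in ML cells (-4.26, edgeR adjusted p = 0.000262; 5 counts in LP cells).

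Among the genes downstream of the receptors, Pik3r1, Foxo1, Foxo3, Rps6kb1 and Eif4ebp1 were higher in LP than in ML cells and Akt1 was lower. Of the 5 growth hormone axis genes, Stat5a and Stat5b, which relay growth hormone and prolactin signals, were lower in basal than in both LP and ML cells. Ghr, the growth hormone receptor gene, was higher in basal and in LP than in ML cells, and Jak2 was lower in both.

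The genes whose levels over the 12 sums were most like those of each binding protein gene were listed by Pearson correlation of log2(CPM + 1). The 12 sums share 3 libraries, and r is a description. Nearest to Igfbp2 were Krt17 (r = 0.994), Moxd1 (0.990) and Cxcl12 (0.988), and nearest to Igfbp3 were Rcn3 (0.990), Moxd1 (0.989) and Sbspon (0.988). Krt17, Cxcl12, Rcn3 and Sbspon were in the signature that placed the basal cells. Nearest to Igfbp4 were Ccl2 (0.981), Fbln2 (0.980) and Pde12 (0.977), and nearest to Igfbp7 were Oxtr (0.981), a basal marker used in the placing, Bcam (0.979) and Rasl11a (0.975).

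Igfbp5 was nearest to Cbr2 (0.987), Lcn2 (0.985) and Fads1 (0.980), none of them a signature gene. Lcn2, which encodes the iron-carrier protein lipocalin 2, stood at 5339 CPM in LP, 2234 in Lum Int, 1161 in basal and 61.4 in ML cells, the same order as Igfbp5. Among the 9 genes, Igfbp2 and Igfbp3 had r = 0.985, whereas the neighbours Igfbp2 and Igfbp5 had 0.217.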

How the data were processed

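Single-cell RNA sequencing of mammary epithelium (10x Genomics Chromium, 3′ protocol) was taken from 4 deposited tables. The authors made them with Cell Ranger 2.0 on mm10, and the deposited values are raw counts (unique molecules of a gene under 1 cell barcode). Depth ranged from 10962454 to 25365324 counts per library. Members and gene lists were chosen with earlier results of these data known.

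Cells with a count of at least 3 of 6 endothelial, fibroblast, pericyte or immune markers and more counts of these than of keratins were left out. Signatures of 100 genes per lineage were taken from seed cells (8 markers each), and cells were placed between the seed medians with borders at 0.333 and 0.667 of the distance. Cells between basal and luminal, 98 in puberty, 30 in estrus and 42 in diestrus, were called mixed and entered no class. Within 0.05 of the basal border lay 32, 13 and 11 cells, and within 0.05 of a luminal border 108, 45 and 35. Scrublet doublets were left out only in an alternative.

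Counts were summed per class and library and tested with edgeR 4.0.16 (R 4.3.3, filterByExpr, TMM, Benjamini-Hochberg). DESeq2 1.42.0 was an alternative. The tests were tried on simulated data. Libraries served as replicates of a class comparison, and the block takes out what all classes of a library share. The p-values therefore rest on how class differences vary between 3 libraries that also differ in stage. All classes of a library come from the same pooled animals, which is where the block comes from. All 9 members were described, and from the 41 pathway genes the ligands, Irs1, Irs2 and the 2 largest called differences of each main comparison were named, with the 3 genes most like each member with a mean of at least 20 CPM. Other pathway genes were named after their values were seen. Some pathway results are not reported here. Alternatives were other scalings, no filter, no block, 1 library left out, the second puberty table, Leiden clusters, stricter cells and cycling cells left out. Intervals are 95% (exact Poisson, Clopper-Pearson or conditional) for counting error.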

Additional observations from a re-analysis of the deposited data

Results flagged for a closer look

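Cells of other types were outside every comparison, and some binding protein genes were far higher in them than in any epithelial class of the same library. Igfbp7 was at 15291 CPM in 2 puberty endothelial cells, 7255 CPM in 6 estrus endothelial cells and 12658 CPM in 1 diestrus endothelial cell. In pericytes it was at 6045 CPM (2 cells, estrus) and 8715 CPM (3 cells, diestrus). In fibroblasts Igfbp7 was at 2256, 5168 and 1473 CPM in puberty, estrus and diestrus, from 12, 16 and 7 cells.

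Igfbp6 was at 2623, 2522 and 1336 CPM in the same fibroblasts, with a count in 11 of 12, 13 of 16 and 5 of 7 cells, against at most 23.1 CPM in any basal class. Igfbp4 was at 420, 472 and 377 CPM in fibroblasts. These cells passed a sort for epithelium, are few, and were named from 6 markers per type, so the values describe them and no other fibroblasts or vessels of the gland.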

How the results depend on the processing

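Beyond leaving out libraries, single-gene tests gave 584 values under other settings, of which 557 kept direction and call, 10 lost the call, 9 gained it and 8 changed sign. With 1 library left out, 131 of 145 kept both. The log2 difference of Insr, basal against LP, -0.01 in the report, was 0.19 with library sizes alone, 0.044 with DESeq2 size factors, 0.050 with DESeq2, 0.059 without a filter, 0.027 without the block, 0.078 with Leiden clusters, 0.0026 with other cell types kept, and -0.079 to 0.21 with a library left out. Insr between Lum Int and ML cells ran from -0.28 to 0.77 with a library left out, and the Igfbp3, cycling difference in basal against luminal cells, from -1.62 to 2.19, while the Igfbp7 interaction was 0.13 with cycling set by Mki67 alone.

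Among members called, Lum Int against LP gave 0 in the report, 2 at a threshold of 0.05, 2 without a filter, 1 with both puberty tables summed, 1 without cycling cells, and 0 to 1 with a library left out. Cycling against other cells gave 3, or 5 without a filter and 1 to 5 with a library left out (1 without puberty or estrus, 5 without diestrus). The interaction gave 0, or 1 (Igfbp5) without a filter, with Leiden clusters or without estrus, and 0 to 1 over the libraries left out. In basal cells the puberty comparison gave 2, or 1 with TMM within the class or Leiden clusters (Igfbp4), and 0 with a mean over cells or without cycling cells. In LP cells it gave 0, or 1 (Igfbp7) with library sizes alone, a mean over cells or other types kept. In ML cells estrus against diestrus gave 0, or 1 (Igfbp5) with Leiden clusters. The cause was not tested in any of these.

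Without the library block, Igfbp5 (basal against LP, -1.13, edgeR adjusted p = 0.0161), Igf1r (basal against LP, 0.64, 0.0494), Igfbp7 (Lum Int against ML, 3.33, 0.0136) and Igfbp7 in cycling cells (-0.80, 0.103) were not called, and no other single-gene call was lost. All genes called fell without the block from 1981 higher and 1971 lower to 1290 and 1196 for basal against LP, from 2683 and 2376 to 1813 and 1519 for basal against ML, from 1861 and 1618 to 1104 and 804 for LP against ML, from 553 and 363 to 235 and 15 for Lum Int against LP, and from 581 and 109 to 321 and 6 for Lum Int against ML. Library sizes alone moved the median gene to 0.186 for basal against LP and -0.156 for LP against ML, with splits of 2532 and 1485, 1422 and 2178, and in cycling cells 1852 and 970 against 1155 and 1827. For Lum Int against LP they gave 667 and 218. Lum Int comparisons rested on few cells: without puberty, estrus or diestrus 291 and 137, 300 and 110, or 339 and 254 genes were called against LP. The interaction, 16 and 17 genes in the report, ranged from 0 without the block to 94 and 95 without a filter. Igf1r between basal and LP cells was also lost with Leiden clusters (0.56, edgeR adjusted p = 0.0147), and in cycling cells with Mki67 alone (-0.40, edgeR adjusted p = 0.262). Depth limits Insr, Igf2r and Igfbp6, with 49, 73 and 146 basal counts over the 3 libraries.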
